A study of Mus musculus with 6 samples.

Results

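Genes for subunits of potassium and voltage-gated calcium channels were compared between 2 layers of the mouse embryo's small intestine, the epithelium and the mesenchyme. Members were taken by gene symbol alone, as all probe sets whose symbol in the platform annotation begins with Kcn followed by letters and a number, or with Cacna1, Cacna2d, Cacnb or Cacng. This gave 222 of 45037 probe sets and 108 of 18193 genes, 84 of them Kcn genes (167 probe sets) and 24 Cacn genes (55 probe sets). The Kcn pattern also took 3 noncoding genes, Kcnq1ot1, Kcnmb4os1 and Kcnmb4os2, which encode no channel. Another 15 gene symbols that fit the pattern in the RefSeq gene table were not analysed here. The series holds 6 Affymetrix arrays, each of RNA from 1 pool of tissue of 3 embryos of C57BL/6 mothers at E18.5. The groups were epithelium (arrays A, B and C) and mesenchyme (arrays A, B and C), and the series was made to compare expression between them. Both had been kept for 9 hours at 4 °C in Cell Recovery Solution, after which the epithelium came off by shaking and the rest of the gut wall was taken as mesenchyme. Of 6 pools per tissue, the 3 used had been picked by RT-PCR for little or no signal of the other tissue's marker genes. Because each array measures a whole tissue, fewer cells of a type and less RNA per cell cannot be told apart.

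Potassium channels let potassium leave the cell and so hold the membrane at a negative voltage. In smooth muscle this counters the opening of voltage-gated calcium channels, through which calcium enters to start contraction and, in interstitial cells of Cajal and neurons, to support electrical rhythm and transmitter release. In gut epithelium, potassium channels of the basolateral membrane keep up the electrical force by which chloride leaves through the apical channel Cftr. Both kinds of channel are built from pore-forming subunits, which conduct the ion, and auxiliary subunits, which set gating and transport to the membrane.

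To show the regulatory sequence next to the genes with the largest differences, the 250 bases before the annotated start are given for 2 genes that were higher in the mesenchyme and for the gene with the largest excess in the epithelium. The sequences run 5′ to 3′ on the gene's strand, come from RefSeq (build GRCm38.p6), and have each CG dinucleotide in capitals. They lie at chr5:15934441-15934690 (plus strand, Cacna2d1), chr6:142571615-142571864 (minus strand, Kcnj8) and chr8:125994852-125995101 (plus strand, Kcnk1).
Cacna2d1: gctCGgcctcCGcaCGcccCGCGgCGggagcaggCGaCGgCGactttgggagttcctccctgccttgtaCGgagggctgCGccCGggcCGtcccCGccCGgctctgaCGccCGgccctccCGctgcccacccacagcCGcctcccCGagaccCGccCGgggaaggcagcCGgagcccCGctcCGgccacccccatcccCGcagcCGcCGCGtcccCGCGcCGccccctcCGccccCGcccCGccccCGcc
Kcnj8: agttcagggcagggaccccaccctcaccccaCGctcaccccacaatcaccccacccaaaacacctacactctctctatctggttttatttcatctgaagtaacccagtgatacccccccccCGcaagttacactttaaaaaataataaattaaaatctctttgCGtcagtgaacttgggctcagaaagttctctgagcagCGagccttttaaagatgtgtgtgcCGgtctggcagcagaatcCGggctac
Kcnk1: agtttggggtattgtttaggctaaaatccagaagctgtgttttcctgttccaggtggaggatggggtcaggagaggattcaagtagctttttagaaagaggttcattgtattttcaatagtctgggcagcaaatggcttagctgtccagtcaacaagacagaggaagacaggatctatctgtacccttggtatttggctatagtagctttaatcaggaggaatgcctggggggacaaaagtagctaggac
The Cacna2d1 window held 36 CG dinucleotides, that of Kcnj8 held 6, and that of Kcnk1 held 0. Of the 108 genes, 82 had at least 1 such window in the table, 115 windows in all, with a median of 8 CG dinucleotides against 6 over all 32851 windows. The GC box (GGGCGG on either strand) was in 46.1% of the members' windows and in 32.7% of all windows, and TATAAA (either strand) in 3.48% and 12.4%. The CArG box, the motif read by serum response factor in muscle genes, was in 0 of the 115 windows and in 1.47% of all windows, where no match says only that these letters are not in this stretch. Windows of genes higher in the mesenchyme (21) held a GC box in 33.3% and those of genes that did not pass (91) in 49.5%. These 21 windows came from 11 of the 19 genes called on that side and had a median of 5 CG dinucleotides (1 to 48). Genes higher in the epithelium had 3 windows, with a median of 3 (0 to 10), so the windows printed above do not stand for their groups.

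Each probe set had a log2 expression value on every array, with array medians of 8.1 to 8.7. Differences are on this scale and carry the standard error of the limma fit (n = 3 per tissue). A call required at least a 2-fold difference and an adjusted p under 0.05 (Benjamini-Hochberg over all 45037 probe sets). A gene took the call of its brightest probe set, that with the highest average of the 6 arrays. The tissue labels were checked against markers: all 8 epithelial markers were higher in the epithelium, and all 9 smooth muscle, 5 fibroblast, 4 pericyte and 3 measured interstitial cell of Cajal markers were higher in the mesenchyme. So were 5 of 6 endothelial, 8 of 9 enteric neuron, 4 of 5 immune and 1 of 4 enteric glia markers, while 6 of 10 enteroendocrine and 3 of 6 pancreas and liver markers were higher in the epithelium. The log2 of the summed linear level of the smooth muscle markers ran from 11.85 to 12.05 in the epithelium and from 16.63 to 16.68 in the mesenchyme. For enteric neurons it ran from 11.28 to 11.57 and from 13.76 to 13.93, for pericytes from 10.48 to 10.81 and from 13.55 to 13.77, for interstitial cells of Cajal from 9.87 to 10.46 and from 12.47 to 12.74, and for endothelium from 11.83 to 12.14 and from 14.22 to 14.40. Epithelial markers stood at 16.25 to 16.67 in the epithelium and at 12.10 to 12.71 in the mesenchyme. These lists all moved with the tissue, and their part in the channel results below was not tested.

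Of the 108 channel genes, 86 did not pass, 19 were higher in the mesenchyme and 3 were higher in the epithelium. The called share was 20.4%, against 24.1% of all genes, so that channel genes were not called more often than genes at large. Of all genes, 8.20% were called on the epithelial side and 15.9% on the mesenchymal side. Counted by probe sets, 37 were called on the mesenchymal side and 4 on the epithelial side, that is 41 of 222, against 21.5% of all probe sets (15.5% and 5.98% by side). The median difference, epithelium minus mesenchyme, was -0.22 over the channel genes and -0.17 over all genes, and the median size of the difference was 0.33 and 0.43. At 4-fold or more were 4 channel genes (3.70%, against 9.60% of all genes), Cacna2d1, Kcnj8, Kcna5 and Kcnk2, all on the mesenchymal side. The arrays of the tissues did not overlap in any of the 22 called genes, nor in 47 channel genes as a whole (43.5%, against 46.5% of all genes), of which 36 lay higher in the mesenchyme (33.3%, against 30.5%) and 11 in the epithelium (10.2%, against 16.0%). For probe sets the count was 91 (41.0%, against 41.7%), 73 higher in the mesenchyme (32.9%, against 29.3%) and 18 in the epithelium (8.11%, against 12.4%). Equal array medians, quantile normalization and cyclic loess gave median differences over all probe sets of 0.13, 0.09 and 0.02, against -0.17 as deposited. Under each of them 5 channel genes were called on the epithelial side, with 13, 9 and 13 on the mesenchymal side (16.7%, 13% and 16.7% called). Of all genes, 23.3%, 22.5% and 22.1% were then called. The mesenchymal share of calls was 86.4% of the channel genes' calls as deposited and 72.2%, 64.3% and 72.2% under these scalings, and over all genes it was 66.0%, then 49.4%, 52.9% and 55.4%, so that it dropped for genes at large too. Under each of these scalings Kcnmb1, Kcnip1, Cacng4, Kcnq3, Kcns2 and Kcnt1 fell short of 2-fold, and under quantile normalization alone so did Cacna1c, Kcng1, Kcnh2 and Kcnip2.

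**Figure D1:**
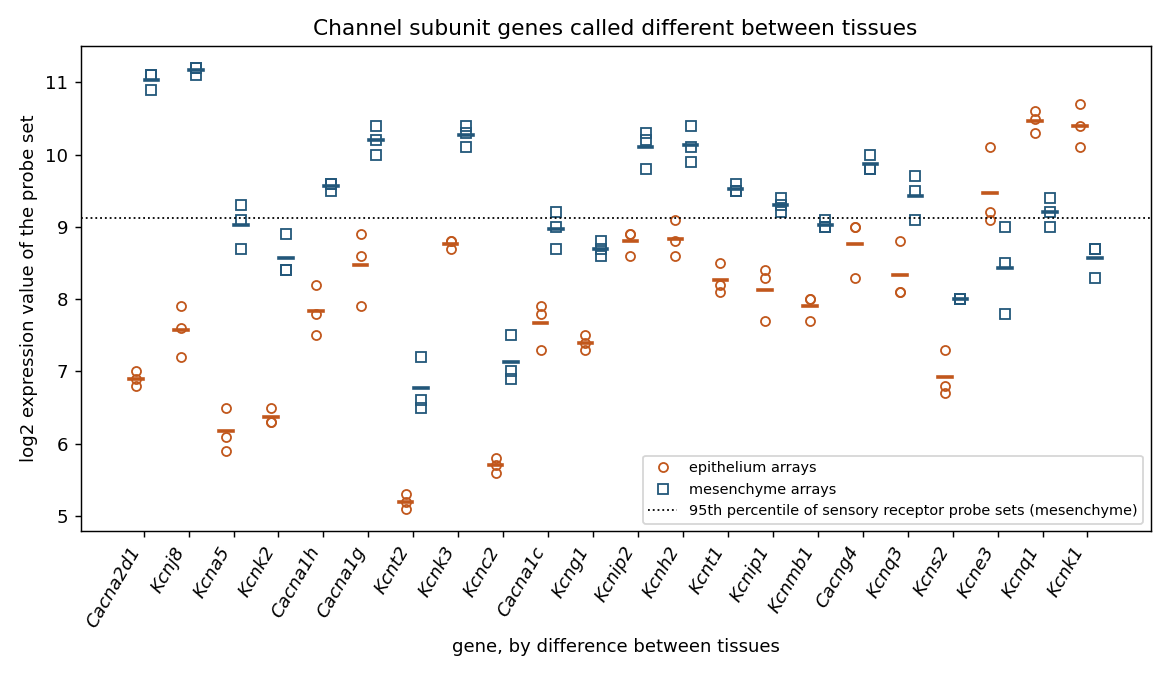
Log2 expression value (vertical axis) of the brightest probe set of the 22 called channel genes, ordered by the difference between tissues. Open circles are the 3 epithelium arrays, open squares the 3 mesenchyme arrays, bars their means, and the dotted line is the 95th percentile of sensory receptor probe sets in the mesenchyme (9.12). Cacna2d1 and Kcnj8 show the widest gaps, and the tissues do not overlap for any of the 22 genes.

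Among calcium channel genes, 19 did not pass, 5 were higher in the mesenchyme and 0 were higher in the epithelium. Of all genes, 15.9% were called higher in the mesenchyme and 8.20% in the epithelium. Whether these few calcium channel genes differ from genes at large was not tested. At an unadjusted p under 0.05 in limma, 7 calcium channel genes were higher in the mesenchyme and 0 in the epithelium. The share of all genes at that limit was not counted. With an adjusted p under 0.05 in limma as the only limit, 40.7% of all genes passed. Of these calls, 66.4% were higher in the mesenchyme, so the count is not read as a result about calcium channel genes. A fit with an intensity trend also called 0 calcium channel genes higher in the epithelium. Cacna2d1 encodes an alpha2delta subunit, an extracellular auxiliary protein that carries the pore to the membrane and binds gabapentin. Its brightest probe set (1433643_at) read 6.8, 6.9 and 7.0 in epithelium A, B and C and 11.1, 11.1 and 10.9 in mesenchyme A, B and C. Array values below follow the same order. All mesenchyme arrays lay far above all epithelium arrays, a difference of 4.13 ± 0.22 (17.5-fold, adjusted p = 8.55e-18) and the largest of the 108 genes. Of its 4 other probe sets, 1425861_x_at (2.47 ± 0.26) and 1440397_at (1.53 ± 0.24) were also called higher in the mesenchyme. 1449999_a_at differed by 0.90 ± 0.23 and 1441608_at by 0.70 ± 0.24 in the same direction without passing, and the mean of the 5 probe sets, epithelium minus mesenchyme, differed by -1.95. Probe sets 1425861_x_at, 1440397_at and 1441608_at lay below the highest of the bacterial control probe sets in both tissues (8.17 in the epithelium, 7.80 in the mesenchyme). The other alpha2delta genes did not pass, with differences, epithelium minus mesenchyme, of -0.97 (Cacna2d3), -0.40 (Cacna2d2) and 0.30 (Cacna2d4).

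The 2 measured T-type pore genes, whose channels open at low voltage, were both higher in the mesenchyme, and Cacna1i was not among the measured genes. Cacna1h (1422710_a_at) read 7.5, 8.2 and 7.8 in epithelium A to C, with 9.5, 9.6 and 9.6 in mesenchyme A to C. Cacna1g (1423365_at) read 7.9, 8.9 and 8.6 in the epithelium, against 10.2, 10.4 and 10.0 in the mesenchyme. In both genes every mesenchyme array lay above every epithelium array, and the difference was 1.73, with standard errors of 0.23 and 0.25 and adjusted p-values of 1.02e-07 and 3.22e-07. A second probe set of Cacna1h, 1427607_at, differed by 0.33 ± 0.23 and did not pass.

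Of 4 L-type pore genes, which encode the channels with long-lasting current blocked by dihydropyridines, 1 was called. Cacna1c, the L-type pore of smooth muscle and heart (1421297_a_at), read 7.3, 7.8 and 7.9 in epithelium A to C, with 9.0, 8.7 and 9.2 in mesenchyme A to C. The gap of 1.30 ± 0.24 (adjusted p = 2.29e-05) stood beside one of 1.27 ± 0.23 for its second probe set, which quantile normalization (0.92) and equal medians (0.97) took under 2-fold. Cacna1d, an L-type pore of neurons, endocrine and pacemaker cells, did not pass by its brightest probe set (0.27 ± 0.23). Its other probe set, 1427974_s_at, read 6.4, 6.4 and 6.6 in the epithelium, against 8.4, 8.2 and 8.2 in the mesenchyme, a call of 1.80 ± 0.23. Cacna1s, the pore of skeletal muscle, and Cacna1f, that of the retina, differed by -0.20 and 0.23, epithelium minus mesenchyme, and did not pass.

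Pore genes of P/Q, N and R type channels, known for transmitter release from nerve endings, did not pass by their brightest probe sets (Cacna1a, Cacna1b and Cacna1e, -0.20 to 0.13). Dimmer probe sets of Cacna1b (1460608_at, 1.60 ± 0.23, and 1436602_x_at, 1.47 ± 0.23) and of Cacna1a (1450510_a_at, 1.13 ± 0.25) were called higher in the mesenchyme. All of these lay below the highest of the bacterial control probe sets in both tissues. Cacna1b probe set 1460608_at read 5.1, 5.3 and 5.5 in epithelium A to C, with 7.2, 6.6 and 6.9 in mesenchyme A to C. That call of Cacna1a rested on widely spread mesenchyme arrays (7.7, 7.1 and 6.5) and ended at 0.83 without mesenchyme A, and it also ended with equal medians (0.83), quantile normalization (0.84) and cyclic loess (0.95).

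Beta subunits bind the pore from the inside of the cell and bring it to the membrane, and 0 of 3 measured genes were called by their brightest probe set (limma; 1 at an unadjusted p under 0.05, and 0 called with an intensity trend). Cacnb2, a partner of Cacna1c in muscle, differed by 0.83 ± 0.23 with the brightest probe set (adjusted p = 0.00368, under 2-fold). Its second probe set, 1452476_at, read 5.9, 5.8 and 5.8 in the epithelium, against 7.8, 7.1 and 7.3 in the mesenchyme and was called (1.57 ± 0.23). Both means of 1452476_at lay below the highest bacterial control. Of 8 gamma genes, which encode membrane proteins related to a muscle calcium channel subunit and to glutamate receptor partners, Cacng4 was called. It stood at 8.77 ± 0.40 (SD, n = 3) in the epithelium and 9.87 ± 0.12 in the mesenchyme, a difference of 1.10 ± 0.24, and at 0.87 without epithelium A it did not pass. Its other probe set, 1455230_at, differed by 0.73 ± 0.23 in the same direction and did not pass. The other 7 gamma genes lay between -0.30 and 0.30.

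**Figure D2:**
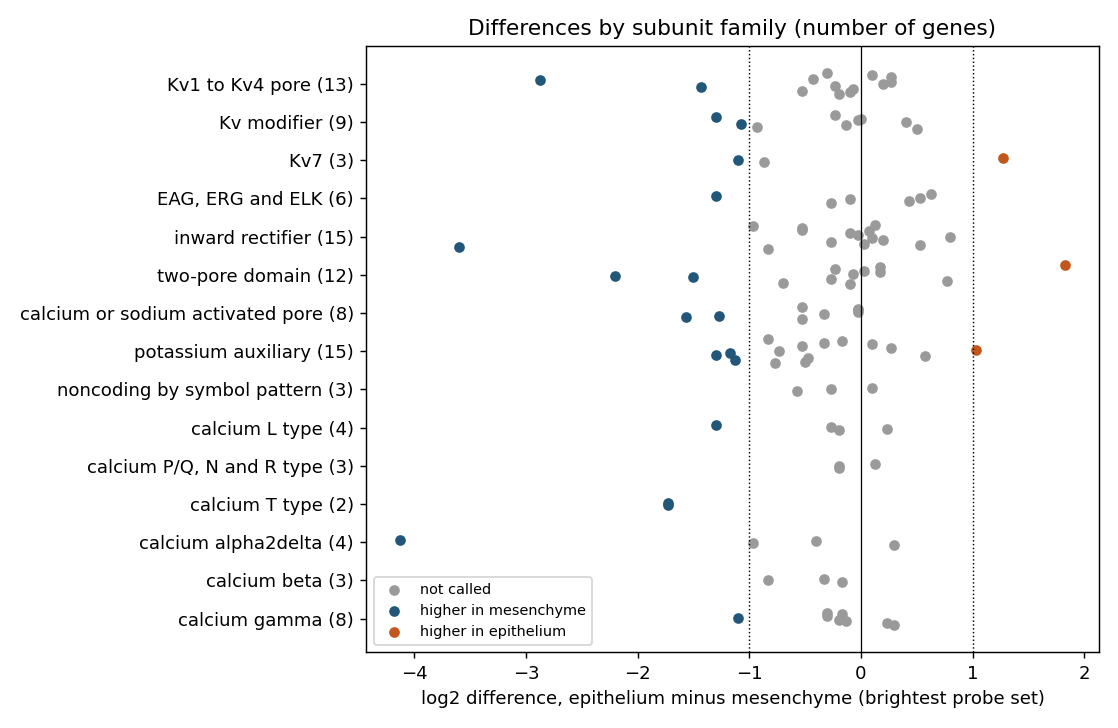
Log2 difference, epithelium minus mesenchyme (horizontal axis), of the brightest probe set of each of the 108 genes, in rows by subunit family with the number of genes in brackets. Dotted lines mark a 2-fold difference. The 3 epithelial genes lie in the Kv7, two-pore domain and potassium auxiliary rows, and all 19 mesenchymal genes lie left of the line at -1.

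Of 15 inward rectifier genes, whose channels pass current more easily into the cell, 1 was called. Kcnj8 encodes Kir6.1, the pore of the ATP-sensitive potassium channel of vascular smooth muscle and pericytes. It read 7.6, 7.9 and 7.2 in epithelium A to C, with 11.2, 11.1 and 11.2 in mesenchyme A to C, where the arrays lay close together. The difference was 3.60 ± 0.23 (12.1-fold, adjusted p = 1.19e-15). Abcc9, the sulfonylurea receptor that joins Kir6.1, is the next protein-coding gene in RefSeq order and was also called higher in the mesenchyme (9.53 against 11.83, a difference of 2.30 ± 0.23). The other pore and receptor of this class, Kcnj11 and Abcc8, are likewise neighbours and did not pass. Kcnj11, or Kir6.2, read 11.7, 12.1 and 11.8 in the epithelium, against 12.5, 12.2 and 12.5 in the mesenchyme (0.53 ± 0.23, adjusted p = 0.065), and its other probe set differed by 0.20. Abcc8 averaged 7.90 and 7.40, higher in the epithelium by 0.50 ± 0.22. Kcnj13 (0.07), Kcnj15 (-0.03) and Kcnj16 (0.80 ± 0.25), known from transporting epithelia, did not pass as deposited by their brightest probe sets. Kcnj16 passed under equal medians (1.10), quantile normalization (1.13) and cyclic loess (1.01). Its other probe set, 1435094_at, differed by 0.37 ± 0.25 as deposited. The other probe sets of Kcnj15 stood 0.80 ± 0.22 and 0.40 ± 0.23 higher in the mesenchyme, under 2-fold. All of these dimmer probe sets lay below the highest bacterial control in both tissues.

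Voltage-gated potassium channels of the Kv1 to Kv4 groups open on depolarization and shorten it, and 2 of 13 genes were called by the brightest probe set. Kcna5, or Kv1.5, a delayed rectifier of smooth muscle and heart, read 6.1, 6.5 and 5.9 in epithelium A to C, with 9.1, 8.7 and 9.3 in mesenchyme A to C. The groups were well apart, with a difference of 2.87 ± 0.24 (7.29-fold, adjusted p = 1.07e-12). Its neighbours in the genome, Kcna1 (-0.30) and Kcna6 (0.27), did not pass, and neither did the neighbouring pair Kcna3 (0.27) and Kcna2 (0.10). Kcnc2, a fast channel of neurons, read 5.6, 5.8 and 5.7 in the epithelium, against 7.0, 7.5 and 6.9 in the mesenchyme (1.43 ± 0.23), both tissues lying below the highest of the bacterial control probe sets (8.17 and 7.80).

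The Kv4 genes carry a transient current, and their calls depended on the probe set. Kcnd3 did not pass by its brightest probe set (0.20 ± 0.23), yet 1435720_at read 6.4, 6.9 and 6.9 in epithelium A to C, with 10.5, 9.9 and 9.9 in mesenchyme A to C. Among all 222 probe sets, this difference of 3.37 ± 0.24 (adjusted p = 1.58e-14) ranked after those of Cacna2d1 and Kcnj8. A further Kcnd3 probe set, 1447513_at, was called in the same direction (1.27 ± 0.23, but 0.97 with equal medians and 0.99 after quantile normalization). It lay below the highest bacterial control in both tissues. For Kcnd2, 1422835_at read 6.0, 6.1 and 6.0 in the epithelium, against 8.2, 7.9 and 7.6 in the mesenchyme (1.87 ± 0.23), while 3 other probe sets lay between -0.20 and 0. The Kv4 partners of the KChIP group were called in part. Kcnip2 (1436275_at) read 8.6, 8.9 and 8.9 in epithelium A to C, with 10.3, 10.2 and 9.8 in mesenchyme A to C (1.30 ± 0.23), its probe set 1425870_a_at was called at 2.00 ± 0.23, and its probe set 1421783_a_at differed by 0.23 ± 0.23 and did not pass. Kcnip1 (1416785_at) read 7.7, 8.4 and 8.3 against 9.4, 9.3 and 9.2 (1.17 ± 0.24), with 0.95 and no call without epithelium A. Its 3 other probe sets differed by -0.23, 0.13 and -0.77, epithelium minus mesenchyme, and did not pass. Kcnip3, which also encodes the calcium-dependent repressor DREAM, stood 0.57 ± 0.22 higher in the epithelium by its brightest probe set. By its other one it stood 0.93 ± 0.23 higher in the mesenchyme, and both differences were under 2-fold. Kcnip4 was 0.47 ± 0.23 higher in the mesenchyme by its brightest probe set. Its other probe sets differed by 0.17 and -0.47, epithelium minus mesenchyme, and no Kcnip4 probe set passed.

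Kv modifier subunits form channels only together with other Kv pores, and 2 of 9 were called, both higher in the mesenchyme. Kcng1 read 7.4, 7.5 and 7.3 in the epithelium, against 8.6, 8.8 and 8.7 in the mesenchyme (1.30 ± 0.22), though its other probe set stood at 6.57 in both tissues. Kcns2 stood at 6.93 ± 0.32 (SD, n = 3) and 8.0 ± 0 (1.07 ± 0.23), and without epithelium A the difference was 0.95. Its other probe set, 1421342_at, stood at 6.57 and 6.6 and did not pass. Among the 6 genes of the EAG, ERG and ELK group, Kcnh2, the ERG1 channel that sets the resting voltage of gut smooth muscle, was called. It read 8.6, 9.1 and 8.8 in epithelium A to C, with 10.1, 10.4 and 9.9 in mesenchyme A to C (1.30 ± 0.23, adjusted p = 1.86e-05). Kcnh1 was 0.63 ± 0.23 higher in the epithelium, under 2-fold.

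The BK channel, opened by calcium and voltage and a brake on smooth muscle contraction, consists of the pore Kcnma1 and, in smooth muscle, the beta subunit Kcnmb1. Kcnmb1 was higher in the mesenchyme by both probe sets, 1421400_at (7.90 ± 0.17 and 9.03 ± 0.06, SD, n = 3, a difference of 1.13 ± 0.23) and 1421401_at (1.5 ± 0.23). Kcnma1 was not called by its brightest probe set, 1425987_a_at, which read 9.1, 9.9 and 9.8 in the epithelium, against 10.2, 10.1 and 10.1 in the mesenchyme (0.53 ± 0.24, adjusted p = 0.078). Probe set 1428948_at of Kcnma1 read 5.9, 6.5 and 6.5 against 8.8, 8.1 and 8.1, and was called at 2.03 ± 0.25. Probe set 1440728_at was called at 1.57 ± 0.24, the 2 others stood at 0.70 and 0.60, and the mean over all 5, epithelium minus mesenchyme, differed by -1.09. All 5 thus pointed to the mesenchyme, with 2 calls. The uncalled 1424848_at (5.47 and 6.17) and 1457018_at (5.13 and 5.73) lay below the highest bacterial control in both tissues. The other beta genes, Kcnmb4 (0.77 ± 0.23, adjusted p = 0.00799) and Kcnmb2 (0.50 ± 0.23), stayed under 2-fold.

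Of the other calcium- or sodium-activated pores, the sodium-activated Kcnt2 read 5.2, 5.1 and 5.3 in epithelium A to C, with 7.2, 6.5 and 6.6 in mesenchyme A to C (1.57 ± 0.24), likewise below the highest bacterial control in both tissues. Its relative Kcnt1 was the single channel gene with calls in opposite directions, as were 25 (0.137%) of all genes. By 1441511_at Kcnt1 read 8.1, 8.5 and 8.2 in the epithelium, against 9.6, 9.5 and 9.5 in the mesenchyme (1.27 ± 0.23 higher in the mesenchyme). By 1458428_at it read 7.7, 8.4 and 8.6 against 7.2, 7.3 and 7.1 (1.03 ± 0.24 higher in the epithelium). That epithelial call ended without epithelium B (0.95), epithelium C (0.85) or mesenchyme C (0.98), and the remaining probe set differed by 0.33 in the direction of the mesenchyme. The small-conductance channels Kcnn1, Kcnn2 and Kcnn3, the last a channel of the fibroblast-like cells next to gut muscle, each differed by 0.03 with the brightest probe set. Kcnn4, the intermediate-conductance channel of blood cells and secretory epithelium, read 9.3, 9.9 and 9.9 in epithelium A to C, with 10.0, 10.0 and 10.1 in mesenchyme A to C (0.33 ± 0.23) and did not pass.

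Two-pore domain channels carry the background leak of potassium, and 3 of 12 genes were called, in both directions. Kcnk2, or TREK-1, opened by stretch, read 6.5, 6.3 and 6.3 in the epithelium, against 8.9, 8.4 and 8.4 in the mesenchyme (2.20 ± 0.23, 4.59-fold, adjusted p = 3.99e-10). Kcnk3, the acid-sensitive TASK-1, read 8.7, 8.8 and 8.8 against 10.3, 10.4 and 10.1 (1.5 ± 0.23), and its other probe sets differed by 1.57 and 1.30, both called, the latter not after quantile normalization (0.94). Kcnk1, or TWIK-1, had the largest epithelial excess of all channel genes. It read 10.1, 10.7 and 10.4 in epithelium A to C, with 8.7, 8.3 and 8.7 in mesenchyme A to C (1.83 ± 0.23, 3.56-fold, adjusted p = 3.56e-08). Its dimmer probe set, 1455896_a_at, gave 0.97 ± 0.24 in the same direction, just under 2-fold. Kcnk5, or TASK-2, known from bicarbonate- and fluid-transporting epithelia, read 8.9, 9.3 and 8.9 against 8.4, 8.0 and 8.4 (0.77 ± 0.23, adjusted p = 0.00776). Kcnk5 passed under equal medians (1.07), quantile normalization (1.08) and cyclic loess (1.02). Kcnk6 was 0.70 ± 0.23 higher in the mesenchyme, under 2-fold.

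Kcnq1 and its partner Kcne3 form the basolateral potassium channel of intestinal crypts, and both were higher in the epithelium. Kcnq1 read 10.3, 10.6 and 10.5 in the epithelium, against 9.0, 9.4 and 9.2 in the mesenchyme, without overlap (1.27 ± 0.23, 2.41-fold, adjusted p = 1.96e-05). Kcne3 was less even, with 9.2, 10.1 and 9.1 in epithelium A to C, with 9.0, 7.8 and 8.5 in mesenchyme A to C, so that mesenchyme A lay just below epithelium C. Its difference of 1.03 ± 0.27 (2.05-fold, adjusted p = 0.0024) was 0.72 without epithelium B and also 0.72 without mesenchyme B, both without a call. Kcne2 (0.27), a Kcnq1 partner of the stomach, and Kcne1 (0.10), that of heart and inner ear, did not pass, and Kcne4 was 0.73 ± 0.23 higher in the mesenchyme, under 2-fold. Kcnq3 and Kcnq5, neuronal M-current genes of the same pore family, were measured by several probe sets. The brightest of Kcnq3 stood at 8.33 ± 0.40 (SD, n = 3) and 9.43 ± 0.31, a call of 1.10 ± 0.24 on the mesenchymal side that ended without epithelium A (0.98), epithelium C (0.98) or mesenchyme B (0.97). Its other probe set, 1458421_at, was 0.37 ± 0.23 higher in the epithelium and did not pass. Kcnq5 differed by 0.87 ± 0.25 and did not pass. The noncoding Kcnq1ot1, an imprinted antisense transcript of the Kcnq1 locus, had 6 probe sets between -0.57 and 0.67, with 0 calls at 2-fold (limma; 2 had an unadjusted p under 0.05, and 0 were called with an intensity trend).

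Genes that work with these channels were counted in the same fit. Beside these counts, 15.9% of all genes were called higher in the mesenchyme and 8.20% in the epithelium. Whether the lists differ from genes at large was not tested. Of 16 measured channel partners, 4 were higher in the mesenchyme and 1 in the epithelium. Gem (4.40 ± 0.23) and Rrad (1.80 ± 0.22), small GTP-binding proteins that inhibit calcium channels, were called with Abcc9 and the caveolar protein gene Cav1 (5.90 ± 0.25), while Stac, an adaptor of calcium channels, was higher in the epithelium (1.23 ± 0.23). Of 30 genes of intracellular calcium and pacemaker currents, 8 were higher in the mesenchyme and 1 in the epithelium. The mesenchymal ones included the calcium release channel Ryr2 (1.93 ± 0.23), the junctional protein gene Jph2 (1.77 ± 0.23), the cation channels Trpc1 (3.00 ± 0.23) and Nalcn (1.80 ± 0.23), and Ano1, the chloride channel of interstitial cells of Cajal (2.03 ± 0.23). Itpr3, an inositol trisphosphate receptor, was higher in the epithelium (1.00 ± 0.24). Of 15 partners of epithelial ion transport, 7 were higher in the epithelium and 1 in the mesenchyme. Cftr differed by 4.6 ± 0.24, the sodium-proton exchanger Slc9a3 by 4.13 ± 0.24 and the sodium pump subunit Atp1b1 by 2.07 ± 0.22, whereas Slc12a2, the basolateral chloride importer, stood at 11.33 and 11.50. The median differences of these 3 lists were -0.23, -0.47 and 0.63, beside -0.17 over all genes.

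**Figure D3:**
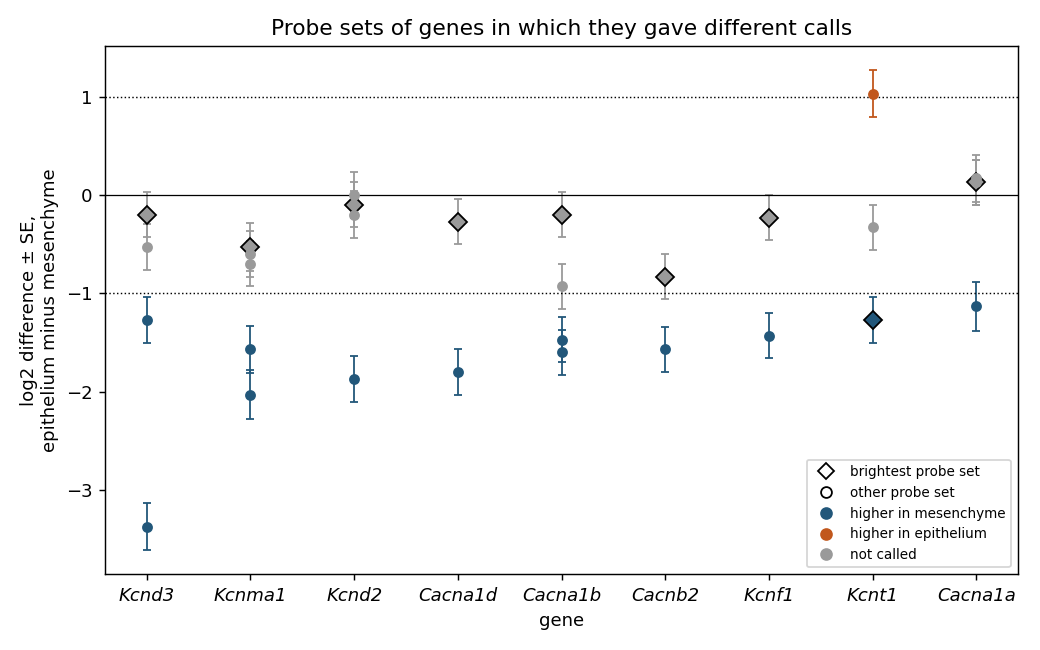
Log2 difference, epithelium minus mesenchyme, with its standard error (vertical axis), of every probe set of the 8 genes whose brightest probe set (diamond) was not called while another (circle) was, and of Kcnt1. Dotted lines mark 2-fold. Most genes show a diamond near 0 and a circle below -1, and Kcnt1 shows calls on both sides of 0.

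How much the choice of probe set mattered was counted over genes. Of 64 channel genes with several probe sets, 8 (12.5%) were called only by a probe set other than the brightest, against 14.2% of all such genes. They were Kcnd3, Kcnma1, Kcnd2, Cacna1d, Cacna1b, Cacnb2, Cacna1a and Kcnf1, and every such call was higher in the mesenchyme. The side of such calls was not counted over all genes, so this direction is not set apart from genes at large. The called probe sets of Cacna1b, Cacnb2, Cacna1a and Kcnf1 lay below the highest bacterial control in both tissues. For Kcnf1, a modifier subunit, 1454768_at read 5.8, 5.8 and 6.0 in the epithelium, against 7.6, 7.0 and 7.3 in the mesenchyme (1.43 ± 0.23), and its brightest probe set differed by 0.23. With any probe set counted, 30 genes were called (27.8%, against 31.1% of all genes), 27 of them on the mesenchymal side (21.7% of all genes) and 4 on the epithelial side (9.61%), with Kcnt1 in both counts. Averaging the probe sets of each gene gave 21 calls, 3 of them on the epithelial side. Kcnd3, Kcnma1, Cacna1d, Cacna1b and Cacnb2 were then called, and Kcng1, Kcnip1, Cacng4, Kcnq3, Kcns2 and Kcnt1 were not.

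Levels were set beside control probe sets, because the values carried no detection calls. Probe sets differ in brightness at equal RNA, so this places signals and does not rank genes. The 27 bacterial control probe sets had a median of 5.70 (epithelium) and 5.93 (mesenchyme), with the highest at 8.17 and 7.80. Of the 108 channel genes, 60 (55.6%) exceeded the highest bacterial control in the epithelium and 83 (76.9%) in the mesenchyme, against 68.2% and 79.8% of all genes. As a second reference, 83 probe sets for olfactory, vomeronasal and bitter taste receptors had 95th percentiles of 8.99 and 9.12, and limma called 0 of them (5 at an unadjusted p under 0.05, and 0 called with an intensity trend). Above that line were 25 channel genes in the epithelium (23.1%, against 49.6% of all genes) and 34 in the mesenchyme (31.5%, against 54.2%). In neither tissue were 69 genes above it, in both 20, in the epithelium alone 5 and in the mesenchyme alone 14.

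Among the 22 called genes, 14 lay above the sensory receptor line in their higher tissue and 1, Kcnq1, also in the lower one. The 8 called genes below it in their higher tissue were Kcna5, Kcnk2, Kcnt2, Kcnc2, Cacna1c, Kcng1, Kcnmb1 and Kcns2. Kcnt2 (5.2 and 6.77) and Kcnc2 (5.70 and 7.13) did not exceed the highest bacterial control in either tissue, and the same held for 10 of the 41 called probe sets. The other such probe sets were 1425861_x_at and 1440397_at of Cacna2d1 and 1460608_at and 1436602_x_at of Cacna1b. Further ones were 1450510_a_at of Cacna1a, 1452476_at of Cacnb2, 1454768_at of Kcnf1 and 1447513_at of Kcnd3. Where the lower tissue lies near background, the fold values given above can understate the change. Kcnj11, with 11.87 and 12.40, and Cacng7, a gamma subunit known from brain, with 11.07 and 10.83, were among the genes above the line in both tissues without a call. Their other probe sets were much dimmer. That of Kcnj11 (1450515_at) stood at 7.57 and 7.77, below the highest bacterial control in both tissues. That of Cacng7 (1426336_at) stood at 8.40 and 8.10, below the sensory receptor line in both.

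**Figure D4:**
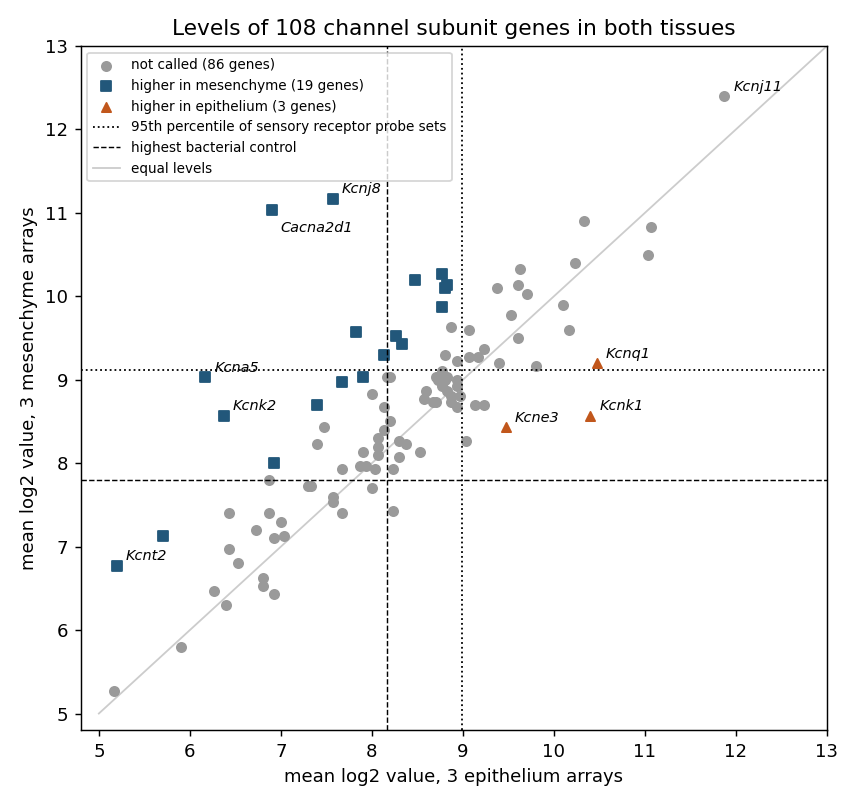
Mean log2 value in 3 epithelium arrays (horizontal axis) and 3 mesenchyme arrays (vertical axis) of the brightest probe set of each of the 108 genes. Dashed lines mark the highest bacterial control (8.17 and 7.80), dotted lines the 95th percentile of sensory receptor probe sets (8.99 and 9.12), and the grey diagonal equal levels. Most grey points, the 86 genes that did not pass, lie along the diagonal, and the called genes lie off it.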

How the data were processed

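The authors deposited 1 table of log2 expression values for 45101 probe sets on 6 arrays, made, per the submitters' processing notes, with RMA, whose version and step between arrays are not given in the sources used here. Values were rounded to 0.1, and the arrays' number limits the precision. The 64 control probe sets were set aside. Of the other 45037, the platform annotation gave 1 symbol for 34945, several for 932 and none for 9160. No member probe set had several symbols, and all 108 member symbols matched RefSeq (GRCm38.p6).

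All probe sets were fitted with limma 3.58.1 (R 4.3.3; lmFit, eBayes; 4 residual and 31.7 prior degrees of freedom) without covariates, with Benjamini-Hochberg adjustment over the whole table. The script was tested on simulated data. The labels do not say that the letters A, B and C pair the tissues or whether pools share litters, so p-values refer to these pools only. With 31.7 prior against 4 residual degrees of freedom, the variance behind each p-value comes mostly from the spread shared over all probe sets. Genes with a called probe set and 26 channels known from gut or muscle were named, 24 of them measured, and the 15 largest differences per direction were given by array. Alternatives covered scaling, dim probe sets, left-out arrays, a replicate block, the variance model, thresholds and the probe set of a gene. Members, lists and motifs were chosen with earlier results of these data known, and the GC box and TATAAA after the values had been seen.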

Additional observations from a re-analysis of the deposited data

How the results depend on the processing

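Of 41 called probe sets of the named genes, 25 kept their call under every alternative run for them, and no call of the 59 named probe sets turned to the opposite direction. The count of called channel genes (22) fell by over 1.5 times under quantile normalization (14, or 13%, against 22.5% of all genes), for which the cause was not tested. The count of called probe sets (41) was 22 when only probe sets at or above the highest bacterial control entered, where fewer were tested (19.1% of 115, against 25.9% of all). Without the 2-fold limit the counts were 74 probe sets and 36 genes (33.3% of each, against 37.5% of all probe sets and 40.7% of all genes), and with limits of 4-fold and an adjusted p of 0.01 they were 8 and 4 (3.60% and 3.70%, against 7.81% and 9.60%). Leaving out 1 array at a time gave 39 to 44 probe sets and 18 to 25 genes. The share of member calls higher in the mesenchyme, 90.2% as deposited, was 77.8% with equal medians, 74.2% after quantile normalization and 78.9% after cyclic loess. Over all probe sets it was 72.1%, then 54.5%, 56.8% and 60.7%, so the drop is not a result about channel genes. Deviations from the tissue mean correlated between same-letter arrays at -0.311 to 0.12, so the letters were not taken as pairs. With the letter as a replicate block, 40 probe sets and 21 genes were called, and Kcne3 lost its call. Dim signals limit what can be seen, as 69 of 108 genes lay below the sensory receptor line in both tissues.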
